A study of Mus musculus with 6 samples.

Results

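The TNF and death receptor signalling genes described here were 10 mouse genes: the ligand Tnf, the receptors Tnfrsf1a, Tnfrsf1b, Fas and Tnfrsf10b, the adaptors Fadd and Tradd, the kinase Ripk1, the protease Casp8 and its inhibitor Cflar. They were picked by name, with results of these same arrays already known, among them a lower Tnf signal and a lower level of death receptor genes with PGC-1α. Their values in this contrast are therefore given as a description, with no test of their own. All 18 probes whose RefSeq accession belongs to one of these genes were kept, out of 33767 probes matched to 23462 genes on the array. Of these, 16 probes of 9 genes were bright enough to be fitted, among 17062 genes with such a probe.

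The arrays measured total RNA of BV2 cells, an immortalized mouse microglial line, in 3 arrays without and 3 arrays with overexpression of PGC-1α, a transcriptional coactivator of mitochondrial genes. All 6 samples were treated with LPS, a bacterial cell wall component that activates microglia, so both groups are of LPS-treated cells and no untreated cells were compared. By the study's methods PGC-1α was delivered with a lentivirus under a ubiquitin promoter, with EGFP and puromycin selection, and the methods also mention a negative control virus. Whether the control arrays held cells with that virus, and whether replicates were separate cultures, is not stated. The errors below therefore measure only spread between arrays. Each standard error (SE) is the moderated error of the limma fit, drawn from all fitted probes as well as from the gene's own arrays.

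Every PGC-1α array was dimmer than every control array before scaling: the 75th percentile of signal was 1617, 1627 and 1893 intensity units without and 1157, 856 and 1268 with PGC-1α. Each value below is the log2 of the processed signal minus its own array's 75th percentile, called the scaled value, and the number of arrays limits its precision. On this scale the median gene was 0.23 higher with PGC-1α, so differences are also given relative to that median. After quantile normalization, which gives all arrays one distribution, the median gene differed by 0.03. Both probes of Ppargc1a, the gene of PGC-1α, were close to background and were not fitted, so they give no firm check of the group labels. Of 12 microglial and macrophage markers, 10 were well above background on all 6 arrays and 2, Cx3cr1 and P2ry12, on none. For sums over markers, signal was taken as a multiple of the array's 75th percentile, not as log2. The sum of these markers was 93.3 to 99.4 without and 137 to 163 with PGC-1α. Summed astrocyte markers ran from 0.243 to 0.284 and from 0.412 to 0.529, neuronal markers from 24.2 to 29.7 and from 36.5 to 49.8, and fibroblast markers from 12.4 to 13.4 and from 21.1 to 25.0, in the same order of groups. Those of oligodendrocytes ran from 1.02 to 1.14 and from 1.16 to 1.30, and those of T cells from 0.244 to 0.304 and from 0.265 to 0.312. Well above background on all 6 arrays were 3 of 4 astrocyte, 2 of 4 neuronal, 4 of 4 oligodendrocyte, 3 of 4 fibroblast and 4 of 4 T cell markers, while Slc1a3 of astrocytes and Syt1 of neurons were so on none. The part of these markers in the results below was not tested.

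TNF is an inflammatory cytokine that activated microglia release. It binds the receptors TNFR1 (Tnfrsf1a) and TNFR2 (Tnfrsf1b). TNFR1 recruits TRADD and RIPK1 through death domains and so leads to NF-κB signalling or, with FADD and caspase-8, to cell death, while Fas and the TRAIL receptor (Tnfrsf10b) recruit FADD directly. c-FLIP (Cflar) resembles caspase-8 and holds it in check.

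Promoter windows of 8 members were found in the RefSeq table of build GRCm38.p6, each running from 250 bases before to 50 bases after a gene's start. The windows of 3 members are shown because these genes mark the span of the values below: Tnf, the ligand, Fadd, the member with the lowest difference, and Cflar, the inhibitor, which was not lower. They lie at chr17:35201958-35202257 on the minus strand, chr7:144582392-144582691 on the minus strand and chr1:58711241-58711540 on the plus strand. Letters run 5′ to 3′ along the gene, and capitals mark matches to the TATA box letters.
Tnf: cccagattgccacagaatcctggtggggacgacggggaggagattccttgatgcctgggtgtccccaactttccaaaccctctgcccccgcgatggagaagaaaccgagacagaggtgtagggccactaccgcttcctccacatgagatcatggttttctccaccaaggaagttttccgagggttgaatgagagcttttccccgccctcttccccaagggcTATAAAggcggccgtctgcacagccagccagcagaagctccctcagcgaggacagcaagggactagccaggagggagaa
Fadd: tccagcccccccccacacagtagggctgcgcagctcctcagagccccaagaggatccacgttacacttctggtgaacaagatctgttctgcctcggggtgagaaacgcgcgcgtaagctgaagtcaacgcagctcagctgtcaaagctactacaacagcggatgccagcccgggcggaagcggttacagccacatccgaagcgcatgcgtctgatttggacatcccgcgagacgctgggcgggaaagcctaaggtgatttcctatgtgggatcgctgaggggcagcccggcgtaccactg
Cflar: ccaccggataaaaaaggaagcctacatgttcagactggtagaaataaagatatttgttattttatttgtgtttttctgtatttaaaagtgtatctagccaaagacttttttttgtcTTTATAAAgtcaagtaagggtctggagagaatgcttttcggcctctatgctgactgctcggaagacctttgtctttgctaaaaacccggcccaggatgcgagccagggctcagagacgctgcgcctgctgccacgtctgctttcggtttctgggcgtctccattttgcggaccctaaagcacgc

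The letters TATAAA were found 29 bases before the start of Tnf. In Cflar they were found on both strands in overlapping positions, 132 and 134 bases before the start. They occur in the windows of 15.7% of all 27025 genes in the table. The AP-1 letters TGANTCA, present in 8.97% of genes, were found in the Fas window only among the 8 members, 211 bases before the start. The estrogen-related receptor (ERR) letters AAGGTCA (5.38% of genes), the NRF1 site (5.19%) and the NF-κB consensus (9.55%), all searched on both strands, had no match in the 9 member windows. A match of letters, or its absence, is a description of these windows. Sites farther from the start, or with letters other than those searched, were not looked for. GC content was 58.0% for Tnf, 60.3% for Fadd and 45.0% for Cflar, beside a median of 52.7% over all windows.

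**Figure D1:**
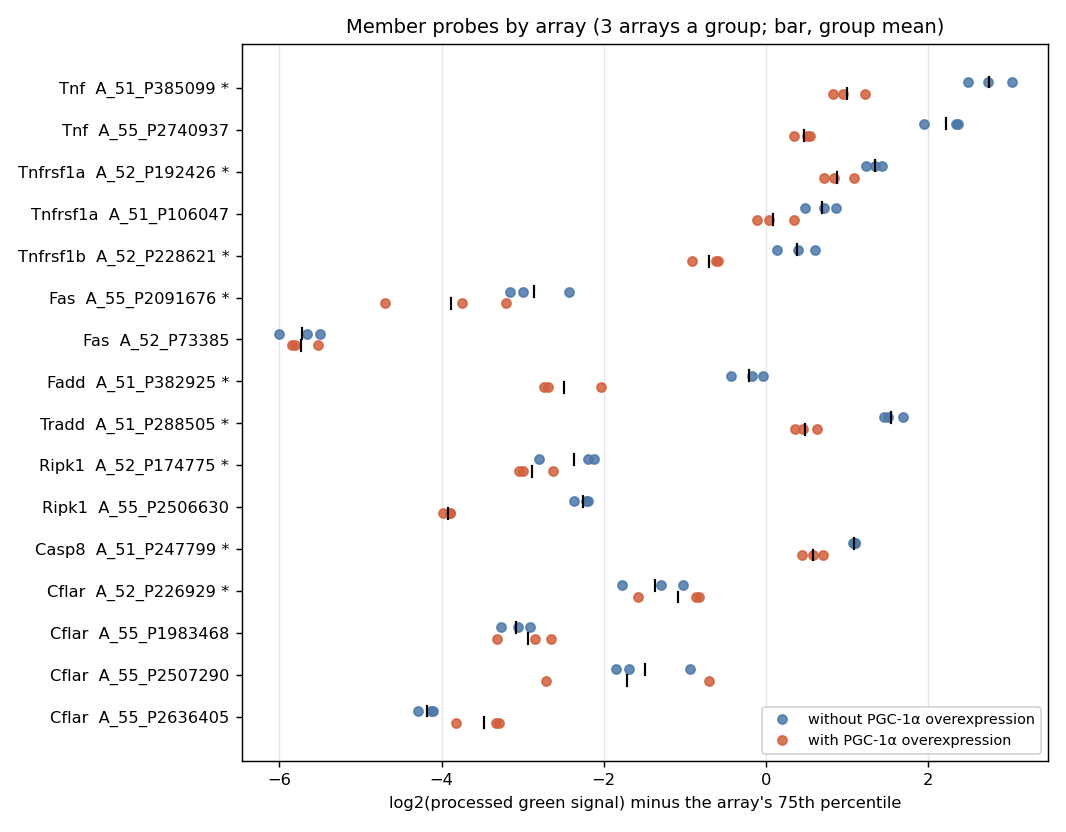
Scaled log2 signal (x axis) of the 16 fitted member probes (rows), with 1 point for each of 3 arrays a group and a bar at the group mean; the asterisk marks the brightest probe of a gene, and positions compare arrays within a row, not rows with each other. Tnf, Tnfrsf1a, Tnfrsf1b, Fadd, Tradd and Casp8 show PGC-1α arrays wholly below control arrays on every fitted probe. So do the brightest Fas probe and the Ripk1 probe without an asterisk, while 3 of the 4 Cflar probes overlap.

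Most of the members were lower in the arrays with PGC-1α, led by the adaptor Fadd and the cytokine Tnf. A probe is referred to as called when its adjusted p was under 0.05 in the limma fit over all 38919 fitted probes, and a gene is represented by its brightest fitted probe. By this measure 7 of 9 member genes were called lower and 0 higher, beside 18.5% of all genes called lower and 34.8% called higher. The median difference of the 9 genes was −1.02 on the log2 scale, which is −1.25 relative to the median of all genes. The differences of Tnf, Tnfrsf1b, Fas, Fadd and Tradd, 5 of 9 genes, were called and at least 1 below that median, as were 10.9% of all genes. Over probes, 11 of 16 were called, 10 of them lower and 1 higher, beside 53.8% of all probes called (18.4% lower and 35.4% higher) and 53.3% of all genes. The arrays of the groups did not overlap for 11 of 16 member probes and for 63.8% of all probes. Since earlier results of this contrast guided the choice of genes, nothing is read from these counts. In bulk RNA, fewer cells expressing a gene and less RNA per cell cannot be told apart.

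**Figure D2:**
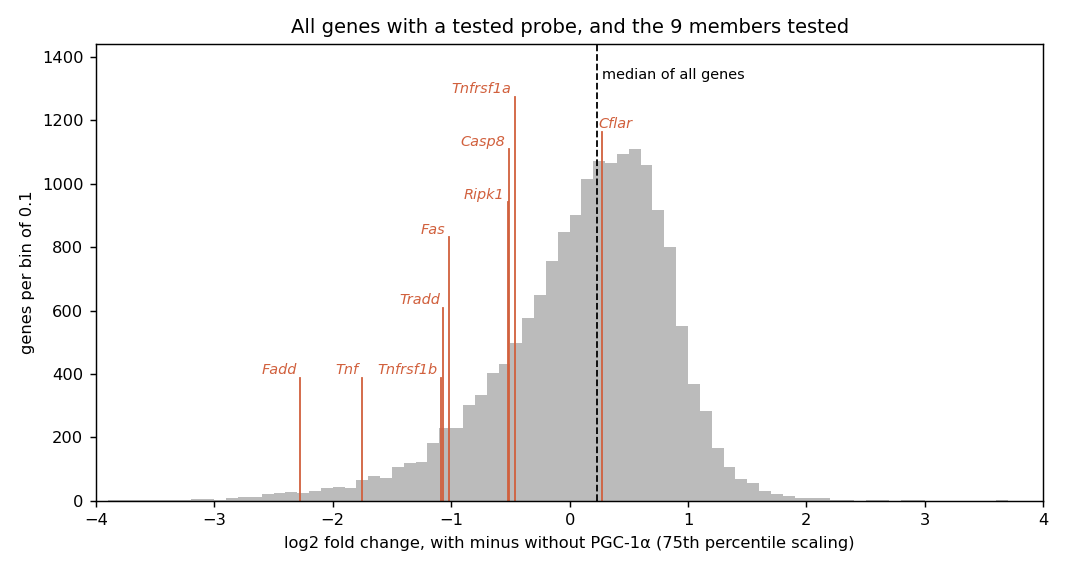
Histogram of the log2 difference, with minus without PGC-1α, of 17062 genes (bars, genes per bin), with lines at the 9 fitted members; line heights only separate the names and the dashed line is the median of all genes, 0.23. Fadd and Tnf lie in the lower tail and Cflar beside the median.

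Tnf, the ligand, had 2 probes that gave the same picture. The brightest read 3.03, 2.74 and 2.50 without PGC-1α and 0.95, 1.22 and 0.83 with it, in scaled log2 units, so that every PGC-1α array lay below every control array. Its mean went from 2.76 ± 0.27 to 1.00 ± 0.20 (SD, n = 3), a difference of −1.75 (SE 0.18), or 3.37-fold lower, and −1.98 relative to all genes. The other Tnf probe read 2.37, 2.34 and 1.95 without and 0.51, 0.55 and 0.35 with PGC-1α, again a difference of −1.75 (SE 0.16). Before any scaling, the brightest probe stood at 13249, 10842 and 10678 intensity units without and at 2230, 1998 and 2259 with PGC-1α. The arrays lay on 2 slides, and the difference was −1.80 within slide 1 and −1.66 within slide 2. Slide 2 held only replicate 3 of each group. Each slide 2 difference, here and below, is therefore 1 array minus 1 array, without replication. Among all genes, 2.01% had a difference as low as that of Tnf or lower.

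In the RefSeq annotation, Tnf lies between 2 other genes of the TNF family, Ltb and Lta, whose values stand beside it here. Ltb, which encodes lymphotoxin β, read 0.40, 0.37 and 0.36 without and 1.47, 1.78 and 1.15 with PGC-1α, a rise of 1.09 (SE 0.18, limma adjusted p = 0.0024). Lta, which encodes lymphotoxin α and is named here only for its place beside Tnf, differed by −0.04 (SE 0.16, limma adjusted p = 0.84), and its groups overlapped. The differences between the changes of these neighbours were not tested.

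The TNF receptors were lower to unequal degrees. Tnfrsf1b, which encodes TNFR2, the receptor without a death domain, read 0.61, 0.40 and 0.13 without and −0.61, −0.59 and −0.91 with PGC-1α. Its groups did not overlap, and the difference was −1.08 (SE 0.17), 2.12-fold lower, with −1.11 within slide 1 and −1.04 within slide 2. Tnfrsf1a, which encodes TNFR1, showed a smaller difference on both of its probes. The brightest read 1.35, 1.24 and 1.44 without and 0.84, 1.08 and 0.72 with PGC-1α, a difference of −0.46 (SE 0.15) that was −0.33 within slide 1 and −0.72 within slide 2. The other Tnfrsf1a probe read 0.87, 0.72 and 0.48 without and 0.04, 0.35 and −0.11 with PGC-1α, a difference of −0.60 (SE 0.17). The groups did not overlap on either probe, but both calls depended on single arrays. The call of the brightest was lost when any array but PGC-1α replicate 2 was left out, with differences of −0.51 to −0.38. That of the other was lost without control replicate 1 (−0.51) or 2 (−0.59) and without PGC-1α replicate 1 (−0.57) or 3 (−0.50).

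Fas, the receptor of Fas ligand, was read differently by its 2 probes, which were designed on different transcripts. The brightest, on NM_007987, read −3.16, −3.00 and −2.43 without and −3.74, −4.69 and −3.20 with PGC-1α. The groups were separated by only a small gap, and the difference was −1.02 (SE 0.37), 2.02-fold lower. It was −1.14 within slide 1 and −0.78 within slide 2, and −0.44, still called, with normexp and the 75th percentile. Leaving out PGC-1α replicate 2, the lowest array, brought it to −0.61, no longer called, and the call was also lost without any one of the other arrays except PGC-1α replicate 3. The other probe, on NM_001146708, lay near the bottom of the signal range, at −5.50, −5.66 and −6.01 without and −5.53, −5.81 and −5.85 with PGC-1α. Its groups overlapped, with a difference of −0.01 (SE 0.18), and with the normexp background correction it was 0.35 and called higher under 75th percentile scaling but −0.11 and not called under quantile normalization. The difference of Fas therefore stands on 1 probe. For Tnfrsf10b, which encodes the mouse TRAIL receptor, a first probe was clear of background on 0 of 6 arrays and a second on 2 control arrays and 1 PGC-1α array, so no difference is given.

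Fadd, the adaptor through which death receptors reach caspase-8, had the largest difference of the members. It read −0.03, −0.17 and −0.43 without and −2.69, −2.04 and −2.73 with PGC-1α, and the groups were far apart relative to their spread. The mean went from −0.21 ± 0.20 to −2.49 ± 0.39 (SD, n = 3), a difference of −2.27 (SE 0.22), or 4.83-fold lower, and −2.50 relative to all genes. Fadd ranked 154 of 17062 genes from the lowest, and the difference was −2.26 within slide 1 and −2.30 within slide 2. Tradd, which links TNFR1 to RIPK1, read 1.69, 1.45 and 1.50 without and 0.36, 0.63 and 0.46 with PGC-1α. These groups did not overlap either, and the difference was −1.07 (SE 0.14), 2.09-fold lower, with −1.08 within slide 1 and −1.05 within slide 2.

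Ripk1, the kinase that TNFR1 recruits, had 2 probes on the same transcript that differed from each other. The brightest read −2.12, −2.19 and −2.80 without and −3.04, −2.62 and −2.99 with PGC-1α. Control replicate 3 fell among the PGC-1α arrays, and the difference, −0.52 (SE 0.22), was not called. It was −0.68 within slide 1 and −0.20 within slide 2, and was called in 4 of 18 alternatives: with the slide block, with the replicate block, with median scaling (−0.63) and without control replicate 3 (−0.74). With normexp it was −0.15 under 75th percentile scaling and −0.31 under quantile normalization. The other probe read −2.20, −2.22 and −2.36 without and −3.90, −3.98 and −3.90 with PGC-1α, a difference of −1.66 (SE 0.13) with groups far apart, which was −1.04 and still called with normexp and the 75th percentile. The first probe's scaled value minus that of the second ran from −0.44 to 0.08 over the control arrays and from 0.86 to 1.36 over the PGC-1α arrays. The differences of the Ripk1 probes were thus 1.14 apart, beside a median of 0.34 between the highest and lowest probe of the 5933 genes with several fitted probes. Which part of the transcript each probe reads was not analysed here.

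Casp8, the initiator protease of death receptor signalling, differed less but evenly. It read 1.08, 1.10 and 1.10 without and 0.45, 0.71 and 0.58 with PGC-1α, so the groups were apart, with a difference of −0.51 (SE 0.13), 1.43-fold lower. It was −0.51 within slide 1 and −0.52 within slide 2, and without PGC-1α replicate 1 it was −0.45 and not called. Cflar is the neighbouring protein-coding gene of Casp8 in the RefSeq annotation, and it was not called on its brightest probe. That probe, on NM_207653, read −1.02, −1.78 and −1.30 without and −0.87, −1.57 and −0.82 with PGC-1α, overlapping groups with a difference of 0.28 (SE 0.26). A second probe of the same transcript read −1.69, −1.84 and −0.94 without PGC-1α and −2.72 and −0.70 on PGC-1α replicates 2 and 3, since replicate 1 was an outlier spot and was left out. The difference of this second probe was −0.22 (SE 0.57), opposite in sign to the first, with overlapping groups and no call. A probe on NM_009805 differed by 0.15 (SE 0.20) and overlapped. The probe on NM_001293804 was higher with PGC-1α, reading −4.11, −4.28 and −4.13 without and −3.32, −3.82 and −3.29 with it, a difference of 0.70 (SE 0.17). This was the 1 member probe called higher, and it was 0.47 relative to all genes. The call was lost after quantile normalization (0.55, or 0.30 with normexp), with the authors' processed values (0.50) and without PGC-1α replicate 1 (0.62).

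**Figure D3:**
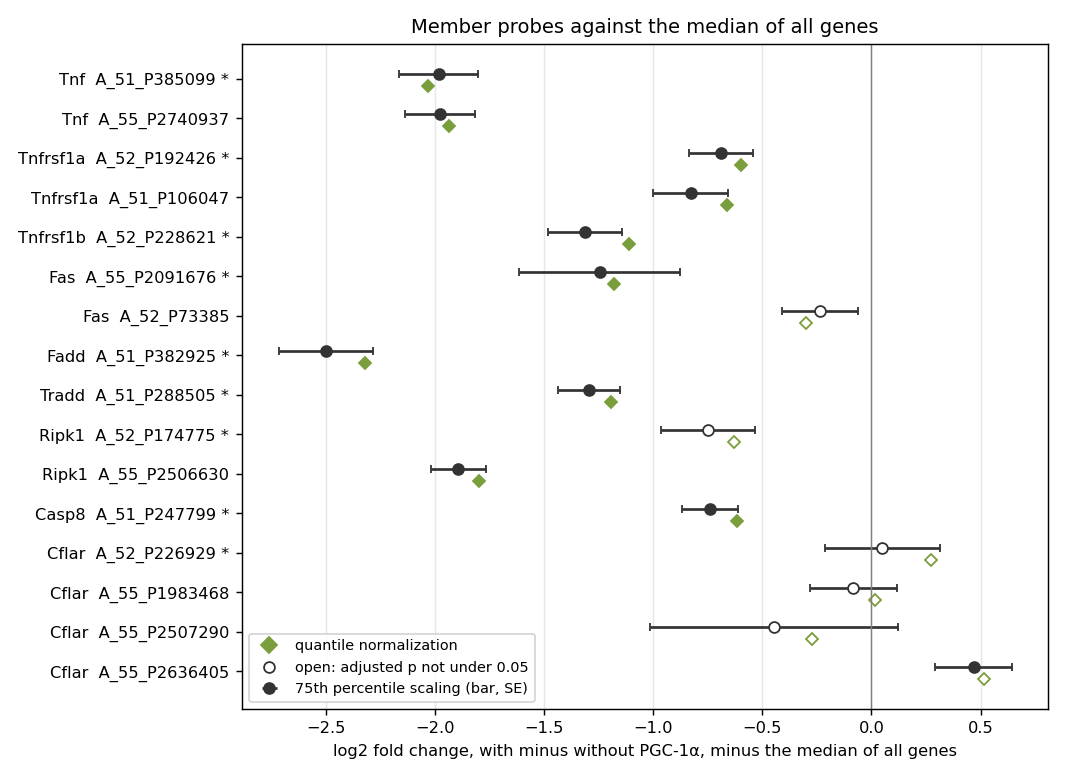
Log2 difference, with minus without PGC-1α, minus the median of all genes (x axis) for each of 16 member probes (rows); circles use 75th percentile scaling with bars of 1 SE, diamonds use quantile normalization, filled symbols are called and the asterisk marks the brightest probe of a gene. The Tnf, Fadd and Tradd probes stay at least 1 below the median under both scalings, and the Fas and Ripk1 probe pairs lie apart.

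In order of their differences the 9 genes ran from Fadd (−2.27) and Tnf (−1.75) through Tnfrsf1b (−1.08), Tradd (−1.07) and Fas (−1.02) to Ripk1 (−0.52), Casp8 (−0.51), Tnfrsf1a (−0.46) and Cflar (0.28). Tnfrsf1b, Tradd and Fas lay within 1 SE of each other, as did Ripk1, Casp8 and Tnfrsf1a. The share of genes as low or lower was 0.903% for Fadd, 6.42% for Tnfrsf1b, 6.69% for Tradd, 7.4% for Fas, 16.9% for Ripk1, 17.2% for Casp8, 18.6% for Tnfrsf1a and 53.1% for Cflar. After quantile normalization 7 of 9 genes were again called lower, beside 19.8% of all genes, and the median of the members relative to all genes was −1.11.

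Around the members, 94 other genes of the pathway were listed by role and 87 of them were fitted. Of the 87, 21 fell (24.1%, beside 18.5% of all genes) and 14 rose (16.1%, beside 34.8%) by the limma call. After quantile normalization 23 fell (26.4%, beside 19.8%) and 7 rose (8.05%, beside 20.2%). The list was also chosen with results of these arrays known, and its median difference relative to all genes was −0.33. The 24 genes named below are the called genes at either end of each role, and 16 of them kept their call in every alternative tried. The counts by role below are to be read beside the same shares of all genes, 18.5% called lower and 34.8% called higher.

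Among 5 fitted ligands, 1 rose and 1 fell. The riser was Ltb, described above, and Tnfsf14, which encodes LIGHT, fell by 1.08 (SE 0.27, limma adjusted p = 0.012). Of 5 genes acting in the shedding of TNF from the cell surface, Frmd8, a partner of the iRhom proteins, fell by 0.57 (SE 0.13). Timp3, an inhibitor of the sheddase ADAM17, rose by 0.90 (SE 0.29). This call was lost after quantile normalization (0.82, or 0.60 with normexp), with no filter on dim probes and with the authors' values (0.74). It was also lost without control replicate 1 (1.01) or 3 (0.68) or PGC-1α replicate 2 (0.59). Of 8 other receptors, 3 rose and 1 fell, but after quantile normalization 1 rose and 2 fell. Tnfrsf12a, which encodes the TWEAK receptor Fn14, fell by 0.93 (SE 0.14, limma adjusted p = 0.0019). Tnfrsf14, the receptor of LIGHT, rose by 0.79 (SE 0.16). Tnfrsf21, which encodes death receptor 6, rose by 0.73 (SE 0.25). Its call was lost after quantile normalization (0.69, or 0.59 with normexp) and with median scaling (0.62). It was also lost with no filter on dim probes and with the authors' values (0.62). The same held without control replicate 1 (0.81) or 3 (0.53) and without PGC-1α replicate 1 (0.65) or 2 (0.57).

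The adaptors and ubiquitin ligases of the receptor complex stood lowest as a role, with 5 of 9 fallen, 0 risen and a median of −0.91 relative to all genes. Birc3, which encodes the ubiquitin ligase cIAP2, read −0.31, −0.38 and −0.52 without and −1.95, −1.71 and −1.82 with PGC-1α. Its groups were far apart, and it fell by 1.42 (SE 0.14, limma adjusted p = 3e-04). Traf3, an adaptor that restrains noncanonical NF-κB signalling, fell by 0.96 (SE 0.19). Of 11 kinases and their partners, 3 fell and 0 rose. Map3k5, which encodes the stress kinase ASK1, read −0.78, −1.02 and −1.14 without and −2.95, −2.55 and −2.79 with PGC-1α. It fell by 1.79 (SE 0.16, limma adjusted p = 2e-04), or −2.01 relative to all genes, the lowest value in the list. Tank, a scaffold of the kinase TBK1, fell by 0.62 (SE 0.16), and its call was lost without control replicate 2 (−0.51).

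Of 10 deubiquitinases and inhibitors, 3 fell and 0 rose, and after quantile normalization 3 fell and 1, the deubiquitinase gene Cyld, rose (0.41). Cyld lies outside the naming rule and was chosen after its values were seen. Tnfaip3, which encodes A20, a ubiquitin-editing inhibitor of NF-κB signalling, fell by 1.07 (SE 0.20, limma adjusted p = 0.0042). Tnip1, an A20-binding protein, fell by 0.80 (SE 0.12). Of 11 other proteins of the death domain or death effector domain group, 3 rose and 2 fell, and after quantile normalization 1 rose and 2 fell. Dedd2 fell by 0.76 (SE 0.13), and Pea15a, which holds a death effector domain, rose by 0.75 (SE 0.17). Faf1, a Fas-associated factor, rose by 0.44 (SE 0.16), but was 0.09 and not called after quantile normalization. Its call was also lost with normexp and quantile normalization (0.19), median scaling (0.33), no filter on dim probes and the authors' values (0.07). Without any one array except PGC-1α replicate 3 the call was lost too, at 0.34 to 0.48. Madd, whose product binds the death domain of TNFR1, fell by 0.42 (SE 0.14). Its call was lost without any one array except PGC-1α replicate 3, at −0.47 to −0.33, and with no filter on dim probes.

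**Figure D4:**
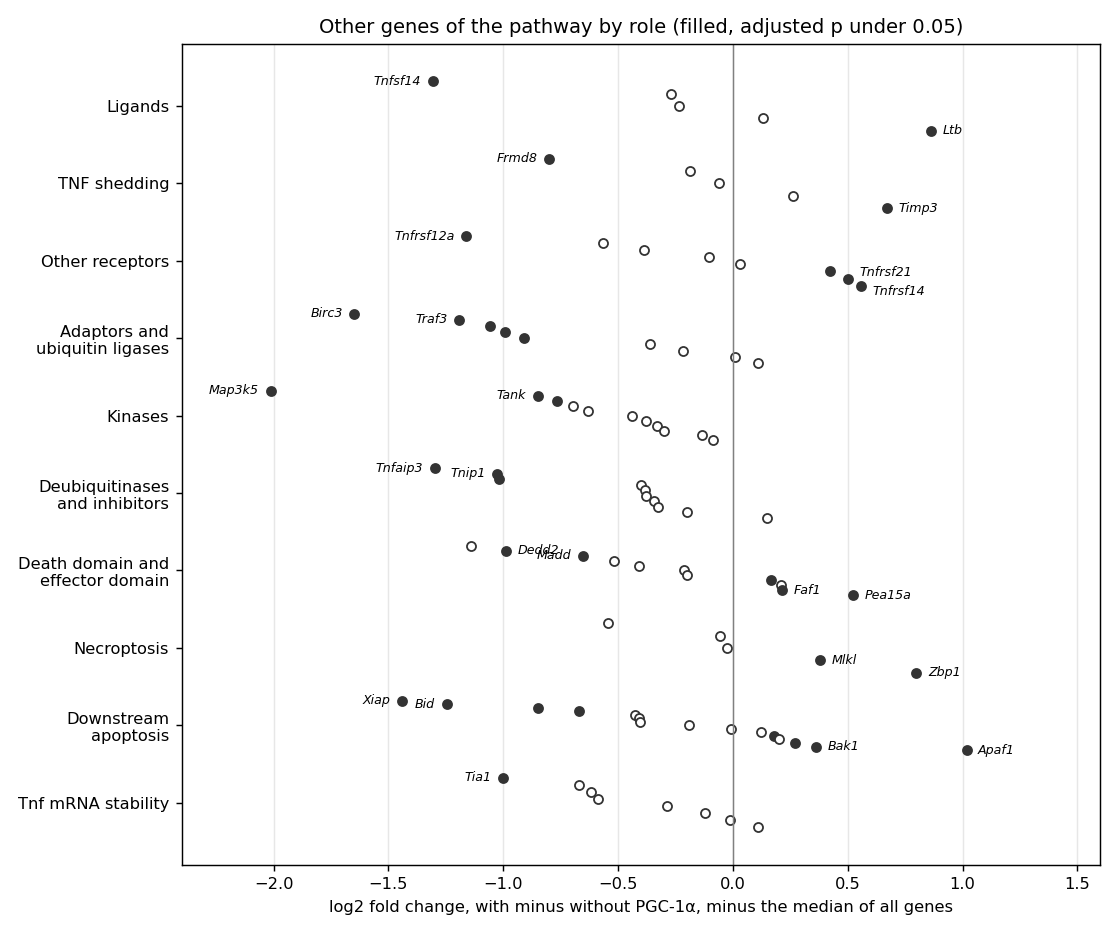
Log2 difference, with minus without PGC-1α, minus the median of all genes (x axis) for 87 other genes of the pathway by role (rows); filled circles are called by limma, open circles are not, and the named genes are written beside their points. No adaptor, ubiquitin ligase or kinase is called higher, and Map3k5 lies lowest.

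Of 5 necroptosis genes, 2 rose and 0 fell, beside 34.8% of all genes called higher and 18.5% called lower. Relative to all genes, the 5 ran from −0.55 to 0.80, with a median of −0.03. Zbp1, a nucleic acid sensor that engages RIPK3, read −1.36, −1.09 and −1.24 without and −0.18, −0.04 and −0.39 with PGC-1α. It rose by 1.03 (SE 0.15, limma adjusted p = 0.0016), and the groups did not overlap. Mlkl, the executioner of necroptosis, rose by 0.61 (SE 0.14), so that both stood above the median gene, by 0.80 and 0.38. Of 15 downstream apoptosis genes, 4 rose and 4 fell, and after quantile normalization 1 rose and 5 fell. Apaf1, the core of the apoptosome, read −2.59, −2.52 and −2.71 without and −1.25, −1.41 and −1.43 with PGC-1α, and rose by 1.24 (SE 0.13, limma adjusted p = 4e-04). Bak1, a pore-forming BCL-2 family protein, rose by 0.59 (SE 0.14). Its call was lost after quantile normalization (0.34, or 0.31 with normexp) and with the authors' values (0.31). Bid, which caspase-8 cleaves to link death receptors with mitochondria, fell by 1.02 (SE 0.15, limma adjusted p = 0.0019). Xiap, an inhibitor of caspases, fell by 1.21 (SE 0.35), and its call was lost without control replicate 2 (−1.08) or 3 (−1.16). Without PGC-1α replicate 2, the lowest array, the difference was −0.79 and still called. Of 8 regulators of Tnf mRNA stability, Tia1 fell by 0.77 (SE 0.26) and 0 rose. Control replicate 1 was an outlier spot for Tia1 and was left out. The call was lost after quantile normalization (−0.74), with no filter on dim probes and with the authors' values (−0.61). It was also lost without PGC-1α replicate 1 (−0.68) or 2 (−0.66), and with control replicate 1 out of the whole fit (−0.77). Without control replicate 2 or 3, Tia1 could not be fitted, since fewer than 2 control values remained.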

How the data were processed

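Total RNA of 6 LPS-treated BV2 samples, 3 without and 3 with PGC-1α overexpression, was read on Agilent mouse 60k arrays. Per the file headers, Feature Extraction 11.5.1.1 wrote the deposited intensity values, of which the processed, background-subtracted signal of the green channel was used. The labels name Cy3 and the labelling protocol Cy5, and only the green channel was in the files used here. The deposited table of log2 values, normalized by the authors in GeneSpring by a method not given in the sources used here, served as an alternative and followed the scaled scanner values with a lowest r over arrays of 0.9988.

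Non-control spots were scaled as log2(signal) minus the array's 75th percentile. Outlier spots were dropped, and each probe's repeated spots were averaged. Of 56605 probes, 33767 (59.7%) matched a RefSeq gene by accession. Fitted probes had values on at least 2 arrays a group and stood well above background throughout the 3 arrays of 1 group or both. All 38919 such probes, matched or not, entered 1 fit with limma 3.58.1 (R 4.3.3, lmFit and eBayes, two-sided) without covariates, with Benjamini-Hochberg adjustment over all and a threshold of 0.05. The code was tested on simulated data. Of the pathway list, called genes with groups that did not overlap were named, at most 2 in each direction and role, by difference. The members and lists were chosen with earlier results of these data known. No spot was saturated and no table column was left unmapped.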

Additional observations from a re-analysis of the deposited data

How the results depend on the processing

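The alternatives were quantile normalization, normexp background correction with an offset of 50, scaling to the median, no or a stricter filter on dim probes, 1 probe a gene, matched probes only, a block by slide or by replicate number, robust estimation with a variance trend, the authors' processed values, the mean of a gene's probes, and each array left out in turn. Outside the arrays left out, 9 to 12 member probes, 5 to 8 member genes and 24 to 39 pathway genes were called. With 1 array left out these counts were 6 to 10, 4 to 6 and 25 to 33, the lowest member counts, 6 probes and 4 genes, coming without PGC-1α replicate 1. The median of member genes relative to all genes was −0.82 with normexp and the 75th percentile and −0.74 with normexp and quantile normalization, and it ran from −1.32 to −0.85 with 1 array left out. No called value changed sign. Across these settings 33.5% to 60.7% of all genes were called. The calls of Tnf, Tnfrsf1b, Fadd and Tradd held in every setting. The call of the brightest Fas probe was also lost with no filter and with the authors' values, and that of the brightest Tnfrsf1a probe with no filter. The cause of these shifts was not tested. With the replicate block, 12 member probes, 8 member genes and 36 pathway genes were called. Deviations of same-numbered arrays from their group means correlated at −0.20, 0.0070 and 0.59 over all fitted probes, the last for the number 3 pair, whose arrays share slide 2. Since not every pair was over 0.1, and not every array correlated best with its own number, the numbers were not taken as pairs. Probes close to background, such as those of Tnfrsf10b and the second Fas probe, limit what can be said of those transcripts.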
